A study of Mus musculus with 8 samples.

Results

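The RNA-binding motif (Rbm) genes were followed in mouse cells on day 6 of neural induction, with and without a knockdown of Zrf1. The knockdown cells carried the hairpin shZrf1 and the control cells carried shCtrl. Both were grown from embryonic stem cells (ESC) towards neural progenitor cells (NPC) that the labels call RGC-like. RNA of 4 knockdown samples and 4 control samples was hybridised to 8 Agilent arrays of 1 colour. The labels do not say whether the samples of a group came from separate cultures, so the p-values measure the spread between these samples, which may in part be technical. They do not name the ESC line or say whether the cells were 1 clone.

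Every probe whose gene name in the scanner files begins with Rbm was taken, which gave 62 probes of 44 genes among 55681 probes on the array. A probe was tested if all 4 arrays of either group read it well above background. That left 56 probes of 41 genes, and Rbm11, Rbm31y and Rbm46 had no tested probe. Where several probes of a gene were tested, the one with the highest mean signal stood for the gene. Signals are log2 values less the array's 75th percentile, and values of 4 arrays are given in the order of replicates 1 to 4. A change is knockdown minus control, and a gene was called at an adjusted p under 0.05 over all 29097 tested probes of the array (limma).

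Most Rbm proteins carry the RNA recognition motif, a small fold that binds single-stranded RNA, often in several copies. The name marks this domain and no common pathway. Members sit in the spliceosome, in the complex that writes m6A on messenger RNA, in the exon junction complex, in adaptors of the nuclear exosome and in the nucleolus. Others regulate splicing in particular tissues or act in germ cells. During neural development Rbm8a is known to be needed for progenitors of the mouse cortex, and Rbm4 has been linked to neuronal splicing.

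The target of the hairpin, Dnajc2 in current annotation, had log2 signals of -2.17, -2.08, -2.51 and -2.53 on the knockdown arrays, against 1.75, 1.87, 1.85 and 2.02 on the control arrays. All knockdown arrays were lower than all control arrays, by 18.3-fold (log2 change -4.19, SE 0.12, limma adjusted p = 1.38e-07). Between 53.4% and 60.3% of the spots on each array were well above background, and none was saturated. The labelled cell type was checked with markers. Of 15 tested neural progenitor markers, 13 were called lower in knockdown cells and none higher, and their summed linear signal was 53.1 to 56.7 on the knockdown arrays, against 239.6 to 250.0 on the control arrays. Fabp7 was well above background on no knockdown array, whereas Sox2 and Nes were well above background on all 8 arrays. In knockdown cells 13 of 13 tested endoderm markers, 10 of 11 epithelial markers and 6 of 9 fibroblast or feeder markers were called higher. Their summed signals were 15.7 to 17.5, 337 to 386 and 106 to 132 on the knockdown arrays, against 3.42 to 4.02, 165 to 184 and 33.4 to 36.2 on the control arrays. No control array read Afp or Sox7 well above background, and no array read Apoa1, Lum or Postn so. Neuron markers split, with 4 of 10 higher and 4 lower, and 2 of 6 tested blood markers were higher and 1 lower. Of the neuron markers 80% were called and of the blood markers 50%, where 57.6% of all tested genes were. By direction, 29.1% of all tested genes were called higher and 28.5% lower. The part of the marker shifts in the Rbm results was not tested. In bulk RNA, fewer cells of a type and less RNA per cell cannot be told apart.

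Rbm transcripts were lower far more often than higher in knockdown cells. Of the 41 genes, 24 were called lower (58.5%, where 28.5% of all tested genes were called lower) and 5 higher (12.2%, where 29.1% of all tested genes were called higher), and 12 were not called. The 24 include Rbm33, counted by its brighter probe, whose other probe was called higher. In both directions together, 57.6% of all tested genes were called. By probe, 30 of 56 were called lower (28.1% of all tested probes were) and 10 higher (29% of all were), so 71.4% were called, where 57.1% of all tested probes were. The median change was -0.39, also with Rbm44 set at its bound, beside a median of 0.04 over all tested genes. The groups did not overlap for 30 genes (73.2%, where this held for 55% of all tested genes), with knockdown arrays all below control arrays in 24 (27.3% of all tested genes) and all above in 6 (27.7% of all). Most changes were under 1 on the log2 scale, with a median size of 0.57, beside 0.42 over all tested genes. A called change of at least 1 on the log2 scale, which is 2-fold, was seen in 9 genes (22.0%, where 17.9% of all tested genes passed both), namely Rbm44, Rbm24 and Rbms1, which were higher, and Rbmx, Rbm19, Rbm45, Rbm3, Rbm4 and Rbm10, which were lower. All 29 called genes, with Rbm44 measured against control signals that were not well above background, had the same sign on each of the 3 slides that held the arrays. That follows from their groups, none of which overlapped, so it is no separate evidence. Slides 1 and 3 held only 1 knockdown and 1 control array each. With slide as a block there were 6 higher and 24 lower calls, where 30.6% of all tested genes were called higher and 29.4% lower. Within slides 1, 2 and 3, the changes were 1.60, 1.54 and 1.61 for Rbm24 and 1.12, 0.97 and 1.03 for Rbms1. They were -2.28, -2.30 and -2.59 for Rbmx, -1.02, -1.29 and -1.25 for Rbm19, -1.10, -1.20 and -1.03 for Rbm45, -1.24, -1.07 and -1.09 for Rbm3 and -0.91, -1.05 and -1.09 for Rbm10. Scaling the arrays by their median moved the median of all genes to -0.13 and the share of all calls that were higher to 37.3%, against 50.5% with the 75th percentile, and the Rbm genes then had 4 higher and 24 lower calls. Of all tested genes, 19.1% were then called higher and 32.0% lower.

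**Figure D1:**
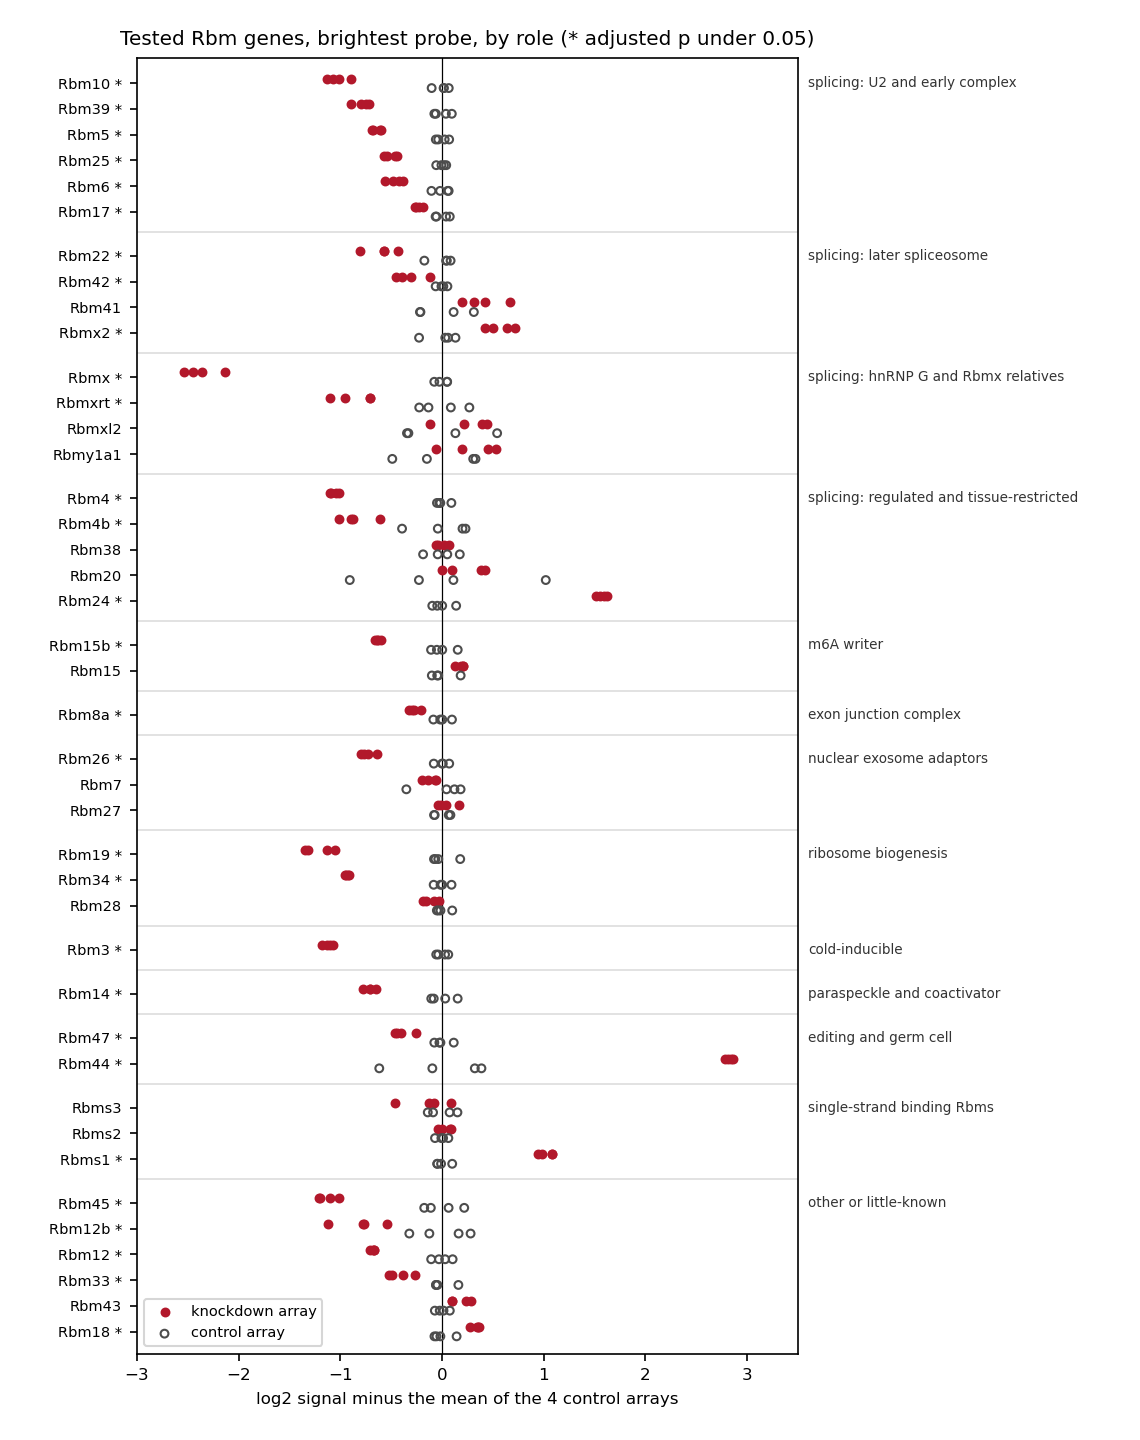
Log2 signal of each tested Rbm gene on each of the 8 arrays, minus the mean of the 4 control arrays, for the brightest tested probe, with genes grouped by role. Filled points are knockdown arrays and open points are control arrays, and a star marks an adjusted p under 0.05. The 6 genes of the U2 and early complex all lie left of the control arrays, and Rbm44, Rbm24 and Rbms1 lie farthest to the right. The control signals of Rbm44 were not well above background.

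Of the Rbm genes, 6 act while the splice sites are being recognised, and all 6 were lower in knockdown cells, with a median change of -0.58. For comparison, 58.5% of the tested Rbm genes and 28.5% of all tested genes were called lower. The count depends on how genes were grouped by role. Of 5 tested Rbm genes placed with regulated or tissue-restricted splicing, 2 were called lower, 1 higher and 2 not called. Rbm5, Rbm6 and Rbm10 are related regulators of exon inclusion, Rbm39 resembles the U2AF subunit that reads the polypyrimidine tract, Rbm17 binds partners of the branch point complex, and Rbm25 is associated with U1. Rbm10 (probe at chrX:20227785-20227844 of mm9, as are all probe positions here) had log2 signals of 3.52, 3.40, 3.28 and 3.34 on the knockdown arrays, against 4.42, 4.43, 4.47 and 4.31 on the control arrays. Its groups did not overlap, and it fell 2.04-fold (log2 change -1.03, SE 0.08, limma adjusted p = 9.39e-06). The Rbm5 probe read 3.82, 3.81, 3.74 and 3.73 on the knockdown arrays, against 4.38, 4.45, 4.49 and 4.36 on the control arrays, again with all knockdown arrays lower. Rbm5 fell 1.57-fold (log2 change -0.65, SE 0.06, limma adjusted p = 4.22e-05). Its chromosomal neighbour Rbm6, whose probe lies 32958 bases away on chromosome 9, fell 1.38-fold (log2 change -0.46, SE 0.07, limma adjusted p = 0.000653).

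For Rbm39, signals were 4.76, 4.61, 4.78 and 4.71 on the knockdown arrays, against 5.45, 5.54, 5.60 and 5.43 on the control arrays. The knockdown arrays were all below the control arrays, a fall of 1.73-fold (log2 change -0.79, SE 0.07, limma adjusted p = 3.13e-05). Rbm25 fell 1.42-fold (log2 change -0.50, SE 0.06, limma adjusted p = 0.000173). Rbm17, also named SPF45, was the least changed of the 6, with 3.55, 3.57, 3.61 and 3.54 on the knockdown arrays, against 3.74, 3.88, 3.75 and 3.84 on the control arrays. Its groups did not overlap, and the fall was called (log2 change -0.23, SE 0.06, limma adjusted p = 0.0123). That call was lost after quantile normalization, where the change was -0.12 with a limma adjusted p of 0.161, and under 5 other alternatives.

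Rbm5, Rbm6 and Rbm10 differed among themselves. Differences in change were tested over the arrays for 16 pairs of related genes with an exact two-sided permutation test of 70 regroupings, which cannot give a p below 0.0286, and 11 pairs reached that p, or 0.0416 after adjustment over the 16. Rbm10 changed more than Rbm5, by a difference of 0.38 (SE 0.04) for Rbm5 minus Rbm10, and more than Rbm6, by 0.57 (SE 0.07) for Rbm6 minus Rbm10 (exact permutation, adjusted p = 0.0416 for both). Rbm5 also changed more than Rbm6, by -0.19 (SE 0.05), but without any 1 knockdown array that adjusted p was 0.0831. Rbm39 changed more than Rbm25, by 0.28 (SE 0.06) for Rbm25 minus Rbm39 (exact permutation, adjusted p = 0.0416), and without control replicate 3 the adjusted p was 0.0762.

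Their partners around the branch point were lower as well. Of 22 tested genes of U2 snRNP and branch point factors, 14 were called lower and none higher, with a median change of -0.37. That is 63.6% called in either direction, near the 57.6% of all tested genes, of which 28.5% were lower and 29.1% higher. The shares called in the lists below are read against the same 57.6%. The U2 subunit Sf3b4 (-1.32), U2surp (-1.10), Sf3a3 (-0.89) and the branch point protein Sf1 (-0.82) had the smallest p values among those lower. Sf3b1 (-0.14, limma adjusted p = 0.651), the SF3b subunit that holds the branch point, was not called.

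Promoters of members that moved together were searched for known letters in the 250 bases before each start, in RefSeq sequences on GRCm38.p6. Of the 44 genes, 37 matched, with 46 starts, and Rbm12b, Rbm20, Rbm22, Rbm27, Rbm3, Rbm44 and Rbm8a did not. The letters CCAAT, read on both strands, stood before 12 of 25 starts of called-lower genes (48.0%) and none of 5 starts of called-higher genes. They stood before 19 of all 46 Rbm starts (41.3%), called or not, where 33.8% of all 32851 starts hold them. The letters GGGCGG stood before 7 of the 25, 4 of the 5 and 17 of all 46 (37.0%), where 32.7% of all starts hold them. CACGTG was found before 5 of the 46 starts, CCGGAAG before 6 and TATAAA before 8, where the shares of all starts were 6.02%, 6.91% and 12.4%. TGACGTCA, TGATGNAAT and the palindromic NRF1 site were found before none of the 46, where 1.55%, 0.816% and 0.782% of all starts hold them. No searched string contains another. The 4 promoters below belong to the splicing genes Rbm5, Rbm39, Rbmx and Rbm10 and are shown because these genes were all lower, and both motifs were picked for show after all 8 had been counted. Capitals mark CCAAT or its reverse in the first 3 and GGGCGG or its reverse in the last. They lie at chr9:107771003-107771252, chr2:156180239-156180488, chrX:57393037-57393286 (minus strand) and chrX:20617253-20617502 (plus strand), and each is read on the strand of its gene. The other start of Rbm39 has no CCAAT. A match is only a match of letters.
Rbm5: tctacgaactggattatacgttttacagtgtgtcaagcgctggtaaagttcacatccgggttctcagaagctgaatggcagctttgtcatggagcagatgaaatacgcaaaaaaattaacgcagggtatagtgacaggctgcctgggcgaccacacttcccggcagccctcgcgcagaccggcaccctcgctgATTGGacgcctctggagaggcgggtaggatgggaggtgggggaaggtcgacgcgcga
Rbm39, first of 2 listed starts: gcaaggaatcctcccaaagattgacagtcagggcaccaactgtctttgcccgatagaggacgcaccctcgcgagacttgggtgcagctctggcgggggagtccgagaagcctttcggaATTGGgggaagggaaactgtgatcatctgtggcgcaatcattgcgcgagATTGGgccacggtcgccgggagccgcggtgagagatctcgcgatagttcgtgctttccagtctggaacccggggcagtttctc
Rbmx: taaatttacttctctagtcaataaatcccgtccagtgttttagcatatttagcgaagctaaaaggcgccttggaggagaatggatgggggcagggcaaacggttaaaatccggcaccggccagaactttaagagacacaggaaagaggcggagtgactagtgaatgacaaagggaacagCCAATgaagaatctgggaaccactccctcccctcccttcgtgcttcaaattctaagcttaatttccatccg
Rbm10: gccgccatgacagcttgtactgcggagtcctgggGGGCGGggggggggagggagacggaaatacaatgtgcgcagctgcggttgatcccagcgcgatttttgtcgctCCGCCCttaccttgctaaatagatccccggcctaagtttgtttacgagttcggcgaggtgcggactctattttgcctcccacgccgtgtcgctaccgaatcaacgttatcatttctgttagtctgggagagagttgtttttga

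Genes that act later in the spliceosome moved both ways. Rbm22, which holds the catalytic RNA core in the activated spliceosome, fell 1.51-fold (log2 change -0.59, SE 0.10, limma adjusted p = 0.00103). Rbm42, an hnRNP K partner, fell 1.25-fold (log2 change -0.32, SE 0.08, limma adjusted p = 0.0116). Rbmx2, the relative of a yeast protein of the retention and splicing complex, rose 1.49-fold (log2 change 0.57, SE 0.10, limma adjusted p = 0.00161). Rbm41, known in human cells from the minor spliceosome, was not called on either of its 2 probes (0.40 and 0.19). Its brighter probe was called without control replicate 1 (0.50, limma adjusted p = 0.0192) or knockdown replicate 2 (0.47, limma adjusted p = 0.0441). Of 19 tested Prp19 and activated spliceosome factors, 13 were called lower and 1 higher (73.7% called), with a median of -0.35. Slu7, which acts at the second step, fell by 1.15 on the log2 scale, Isy1 (-0.64) was lower too, and Crnkl1 was at least 2.05-fold lower, since no knockdown array read it well above background. The step factor Syf2 rose by 0.54.

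Rbmx, which encodes the splicing regulator hnRNP G, had the largest fall of the 41 tested Rbm genes, read on 1 probe. Its probe (chrX:54639554-54639613) had log2 signals of -0.59, -0.37, -0.68 and -0.78 on the knockdown arrays, against 1.81, 1.69, 1.74 and 1.81 on the control arrays. No knockdown array reached the lowest control array, and the gene fell 5.16-fold (log2 change -2.37, SE 0.10, limma adjusted p = 4.93e-07). Rbmxrt, the autosomal retrocopy now called Rbmxl1, fell on both of its probes, by 0.87 and 0.85 on the log2 scale (limma adjusted p = 0.000784 and 0.000197). These probes were much brighter, with control means of 5.80 and 5.68, against 1.76 for the Rbmx probe. The change of Rbmx was larger by -1.50 (SE 0.13) for Rbmx minus Rbmxl1 (exact permutation, adjusted p = 0.0416). The copies are close in sequence, so how far each probe reads the other transcript is uncertain.

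Of the testis-restricted relatives, Rbmxl2, or hnRNP GT, was read well above background by all 8 arrays and was not called (0.24, limma adjusted p = 0.402). Rbmy1a1, of the Y-linked spermatogenesis family, had 2 tested probes that differed. The brighter read -3.74, -3.48, -3.23 and -3.14 on the knockdown arrays, against -3.83, -3.37, -3.35 and -4.17 on the control arrays, with overlapping groups, and was not called (log2 change 0.28, SE 0.21, limma adjusted p = 0.297). The other read -2.70 to -2.19 on the knockdown arrays, against -5.19 to -4.73 on the control arrays, and was well above background on all 4 knockdown arrays and on no control array. That makes it at least 3.03-fold higher. The probe was tested only through its knockdown signals, and its limma adjusted p of 3.46e-06 uses the dim control signals as they are and does not bear on the bound. This family has many near-identical copies on the Y chromosome, so neither probe can be assigned to a single copy. Rbm31y, also Y-linked, was well above background on none of the knockdown arrays and 1 control array and was not tested.

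Among splicing regulators, only some of them restricted to particular tissues, Rbm24 rose and Rbm4 fell. Rbm24, which directs heart and muscle splicing, had log2 signals of 0.40, 0.44, 0.48 and 0.37 on the knockdown arrays, against -1.24, -1.19, -1.01 and -1.15 on the control arrays (chr13:46526275-46526334). The lowest knockdown array lay above the highest control array, and Rbm24 rose 2.97-fold (log2 change 1.57, SE 0.07, limma adjusted p = 8.51e-07). Heart and muscle markers moved with it, since 12 of 13 tested were called higher and none lower, where 29.1% of all tested genes were called higher. Their summed signal was 13.4 to 15.5 on the knockdown arrays, against 4.97 to 5.31 on the control arrays, with Actc1 8.8-fold and Myh7 8.61-fold higher, while the skeletal muscle factors Myod1 and Myog were well above background on no array. Their part in the rise of Rbm24 was not tested.

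Its closest relative Rbm38, a p53 target that regulates splicing and mRNA stability, was not called (log2 change 0.00, SE 0.09, limma adjusted p = 0.998). The difference between the pair was 1.57 (SE 0.08) for Rbm24 minus Rbm38 (exact permutation, adjusted p = 0.0416). Rbm20, the titin splicing factor of the heart, was not called (log2 change 0.23, SE 0.36, limma adjusted p = 0.63), and its control arrays ranged from -3.74 to -1.81. Rbm11, a splicing regulator of brain and testis, was well above background on 2 knockdown arrays and no control array and was not tested.

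Rbm4, which regulates splicing and translation, gave 1.68, 1.65, 1.59 and 1.60 on the knockdown arrays, against 2.65, 2.68, 2.79 and 2.67 on the control arrays. The groups did not overlap, and the gene fell 2.09-fold (log2 change -1.06, SE 0.06, limma adjusted p = 2.85e-06). Its near copy Rbm4b fell 1.8-fold (log2 change -0.85, SE 0.15, limma adjusted p = 0.00167), and the pair differed by -0.22 (SE 0.20) for Rbm4 minus Rbm4b (exact permutation, adjusted p = 0.518). Their sequences are similar, so signal from one may reach the probe of the other. The 2 genes and Rbm14 are neighbours on chromosome 19, with 19656 bases between the probes of Rbm4b and Rbm4 and 15687 between those of Rbm4 and Rbm14, and all 3 were lower.

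A list of splicing regulators outside the Rbm genes held tissue-restricted ones and also broadly expressed ones, such as Ptbp1 and Elavl1. Of its 26 tested genes, 16 were called lower and 4 higher (76.9% called), with a median of -0.52. The neuronal exon activator Srrm4 was well above background on no knockdown array and was at least 16.3-fold lower. Ptbp2, the neuronal polypyrimidine tract protein, fell 2.77-fold. Mbnl2, a muscleblind splicing factor, rose 3.1-fold, and Esrp1, a regulator of epithelial splicing, rose 3.47-fold.

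Rbm15 and Rbm15b bring the m6A methyltransferase to its RNA targets, and they parted. Rbm15b had log2 signals of 1.11, 1.07, 1.08 and 1.05 on the knockdown arrays, against 1.66, 1.71, 1.86 and 1.60 on the control arrays. The groups did not overlap, and it fell 1.55-fold (log2 change -0.63, SE 0.07, limma adjusted p = 0.000121). Rbm15 read 1.89, 1.92, 1.92 and 1.83 on the knockdown arrays, against 1.61, 1.67, 1.89 and 1.66 on the control arrays, where control replicate 3 lay within the knockdown range, and it was not called (log2 change 0.18, SE 0.08, limma adjusted p = 0.0765). Rbm15 was called higher under 5 alternatives, among them quantile normalization (0.27) and leaving out control replicate 3 (0.24, limma adjusted p = 0.00998). The difference of Rbm15 minus Rbm15b was 0.82 (SE 0.03) (exact permutation, adjusted p = 0.0416). The Rbm15b probe, chr9:106787170-106787229, is shown since the call rests on it alone.
Rbm15b probe: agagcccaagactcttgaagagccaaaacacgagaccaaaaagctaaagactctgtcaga

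In the rest of the m6A machinery, the writer and eraser list had 4 of 8 genes lower and 1 higher (62.5% called, near the 57.6% of all tested genes), with a median of -0.19. The readers had 6 of 8 lower and 1 higher (87.5% called), with a median of -0.47. The catalytic subunit Mettl3 (-0.55), its partner Mettl14 (-0.22) and the adaptor Wtap (-0.35) were lower. The reader Ythdf2 fell 1.93-fold. Of the 2 demethylases, Alkbh5 rose 1.51-fold, with 2 of its 3 probes called, and Fto was called lower (-0.25, limma adjusted p = 0.0273).

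Rbm8a, or Y14, is a core protein of the exon junction complex, which marks spliced junctions for export and nonsense-mediated decay. It had log2 signals of 3.75, 3.73, 3.82 and 3.70 on the knockdown arrays, against 3.94, 4.01, 4.03 and 4.12 on the control arrays on a probe at chr3:96434833-96434892. The groups did not overlap, but the fall was small, 1.21-fold (log2 change -0.28, SE 0.07, limma adjusted p = 0.00696). It was not called after quantile normalization (-0.16, limma adjusted p = 0.0617), after normexp (-0.18, limma adjusted p = 0.0695) or in the authors' values (-0.19, limma adjusted p = 0.0708). Its partner Magoh (-0.35) and the helicase Eif4a3 (-0.54) were lower, whereas Magohb rose by 0.78. In the whole list of exon junction and decay genes, 9 of 18 tested were lower and 2 higher (61.1% called, near the 57.6% of all tested genes), with a median of -0.28, and Casc3 (-0.02) and Upf1 (-0.02) were not called.
Rbm8a probe: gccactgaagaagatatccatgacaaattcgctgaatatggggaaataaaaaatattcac

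Of the 3 Rbm genes in adaptors of the nuclear exosome, which feed RNA to the degrading machine, 1 was called lower and 2 were not called. Rbm7, the RNA-binding subunit of the nuclear exosome targeting complex, had log2 signals of 2.71, 2.83, 2.76 and 2.84 on the knockdown arrays, against 3.08, 3.02, 2.55 and 2.94 on the control arrays. Control replicate 3 lay below all knockdown arrays and the groups overlapped, and Rbm7 was not called (log2 change -0.11, SE 0.12, limma adjusted p = 0.461). Without that array the change was -0.23 with a limma adjusted p of 0.0242. Its complex partners Zcchc8 (-0.86) and Mtrex (-0.47) were called lower.

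Rbm26 and Rbm27 are related zinc finger proteins found with the adaptor of polyadenylated exosome targets. Rbm26 fell on both probes, by 0.73 and 0.67 on the log2 scale (limma adjusted p = 3.14e-05 and 0.00029). Rbm27 was not called (log2 change 0.04, SE 0.08, limma adjusted p = 0.683), and Rbm26 minus Rbm27 was -0.77 (SE 0.09) (exact permutation, adjusted p = 0.0416). Of 19 tested genes of the nuclear exosome and its adaptors, 14 were lower and 1 higher (78.9% called), with a median of -0.44. Among them the cap-associated factor Srrt fell 2.31-fold, and Zfc3h1 (0.09), the hub that Rbm26 and Rbm27 bind, was not called.

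In the nucleolus, Rbm19 and Rbm34 fell. Rbm19, needed for processing of ribosomal RNA precursors, had a bright probe (chr5:120648835-120648894) with 2.22, 2.15, 1.93 and 1.96 on the knockdown arrays, against 3.21, 3.24, 3.45 and 3.20 on the control arrays. All knockdown arrays were lower than all control arrays, and the fall was 2.32-fold (log2 change -1.21, SE 0.10, limma adjusted p = 1.51e-05). A dimmer probe 70614 bases upstream (chr5:120578221-120578280) read -3.81, -3.53, -2.16 and -3.23 on the knockdown arrays, against -2.82, -2.83, -3.12 and -2.64 on the control arrays. On that probe knockdown replicate 3 was the highest of the 8 arrays, the groups overlapped and the change was not called (log2 change -0.33, SE 0.33, limma adjusted p = 0.429). Without knockdown replicate 3 it was -0.67, with a limma adjusted p of 0.0126. Its sequence is shown because the gene's probes differ.
Rbm19 dimmer probe: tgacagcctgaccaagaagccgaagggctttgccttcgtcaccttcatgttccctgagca

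Rbm34 fell 1.91-fold (log2 change -0.93, SE 0.06, limma adjusted p = 5.29e-06), and its knockdown arrays lay between 0.43 and 0.47. Rbm28, whose yeast relative joins large subunit precursors, was not called (log2 change -0.11, SE 0.07, limma adjusted p = 0.199).

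The cold-inducible gene Rbm3, which favours translation in cooled cells and protects neurons in mice, fell on both of its bright probes. The brightest (chrX:7719656-7719715) had log2 signals of 5.56, 5.66, 5.64 and 5.61 on the knockdown arrays, against 6.70, 6.80, 6.77 and 6.68 on the control arrays. The second (chrX:7720785-7720844) had 5.17, 5.44, 5.30 and 5.37 on the knockdown arrays, against 6.56, 6.52, 6.05 and 6.40 on the control arrays. Both separated the groups, with falls of 2.17-fold (log2 change -1.12, SE 0.06, limma adjusted p = 2.00e-06) and 2.09-fold (log2 change -1.07, SE 0.12, limma adjusted p = 0.000131). The third probe, 1623 bases from the brightest, gave -1.71, -1.80, -1.76 and -1.66 on the knockdown arrays, against -2.20, -2.63, -1.82 and -1.82 on the control arrays. Its knockdown arrays lay all above the control arrays, and it was not called (log2 change 0.39, SE 0.18, limma adjusted p = 0.0985).
Rbm3 second probe: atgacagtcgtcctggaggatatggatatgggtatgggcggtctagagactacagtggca

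Cirbp, the other cold-inducible protein of this kind, was not called (-0.10), and Rbm3 minus Cirbp was -1.02 (SE 0.07) (exact permutation, adjusted p = 0.0416). In the list of cold-inducible and stress RNA-binding genes, 5 of 10 were lower and 1 higher (60% called, near the 57.6% of all tested genes), with a median of -0.14. Caprin1, a stress granule protein, fell 2.56-fold with 2 of its 3 probes called, and Pabpc4 rose 1.45-fold.

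Rbm14, a transcriptional coactivator and an essential protein of paraspeckles, fell on both probes, by 0.71 and 0.87 on the log2 scale (limma adjusted p = 8.54e-05 and 0.000617). The probe that fell more lies at chr19:4802874-4802933 and is shown for that reason. In the paraspeckle list 6 of 9 genes were lower and none higher (66.7% called), with a median of -0.38. Sfpq fell 3.02-fold and Nono 1.43-fold.
Rbm14 dimmer probe: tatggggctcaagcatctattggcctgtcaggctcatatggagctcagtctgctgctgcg

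Rbm44, a germ cell protein known from intercellular bridges of the testis in mice, had the largest fitted rise of the 41 tested Rbm genes. Its probe (chr1:93067282-93067341) read -2.25, -2.33, -2.27 and -2.30 on the knockdown arrays, against -5.21, -5.73, -4.72 and -4.79 on the control arrays. It was well above background on all 4 knockdown arrays and no control array, so it was at least 3.65-fold higher. The fitted change of 2.82 (limma adjusted p = 9.53e-06) uses the dim control signals as they are and does not bear on the bound, since the probe was tested only through its knockdown signals. Germ cell markers split, with 3 of 6 tested higher and 1 lower (66.7% called, where 57.6% of all tested genes were). The meiotic chromosome protein Sycp3 was 13.8-fold, Mael 5.51-fold and Ddx4 3.55-fold higher, Dppa3 was 1.98-fold lower, and Dazl and Stra8 were not called. Their summed signal was 116 to 132 on the knockdown arrays, against 102 to 122 on the control arrays, so the sums overlapped. Their part in the rise of Rbm44 was not tested.

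Rbm46, a germ cell gene needed for meiosis in mice, was well above background on 2 knockdown arrays and no control array and was not tested. Rbm47, a cofactor of cytidine-to-uridine editing by Apobec1, fell 1.31-fold on its brighter probe (log2 change -0.39, SE 0.07, limma adjusted p = 0.00221). Its other probe, 233 bases away, was called at -0.37 (limma adjusted p = 0.0315), with overlapping groups, and it lost that call without any 1 of 5 arrays (-0.37 to -0.30, limma adjusted p = 0.0613 to 0.0822). Apobec1 rose by 0.60, while the cofactor Syncrip and the deaminase Apobec3 fell by 1.12 and 0.34, which makes 1 of 3 tested editing genes higher and 2 lower (median -0.34), and A1cf was well above background on no array.

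Of the 3 Rbms genes, which bind single-stranded DNA and RNA, only Rbms1 was called. Its brightest probe (chr2:60590813-60590872) had log2 signals of 5.09, 5.09, 4.96 and 4.99 on the knockdown arrays, against 3.96, 3.96, 4.11 and 4.00 on the control arrays. All 3 probes separated the groups, with changes of 1.02, 0.87 and 0.98 (limma adjusted p = 5.15e-06, 0.00192 and 1.24e-05). The brightest rose 2.03-fold. Rbms2 (log2 change 0.03, SE 0.06, limma adjusted p = 0.72) and Rbms3 (log2 change -0.14, SE 0.13, limma adjusted p = 0.379) were not called, although Rbms2 was called higher after quantile normalization (0.14, limma adjusted p = 0.0474) and in the authors' values (0.14, limma adjusted p = 0.0466). Rbms1 minus Rbms2 was 0.99 (SE 0.02), and Rbms1 minus Rbms3 was 1.17 (SE 0.15) (exact permutation, adjusted p = 0.0416 for both), whereas Rbms2 minus Rbms3 was 0.17 (SE 0.14) with an adjusted p of 0.422. Rbms3 was read by 1 tested probe of 3, at a low signal (means of -2.65 in knockdown and -2.51 in control), which limits both of its comparisons. One Rbms1 probe, chr2:60617805-60617864, lies 26992 bases from the brightest and is shown because it gave the same direction so far away.
Rbms1 distant probe: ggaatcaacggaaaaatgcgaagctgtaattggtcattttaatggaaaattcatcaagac

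**Figure D2:**
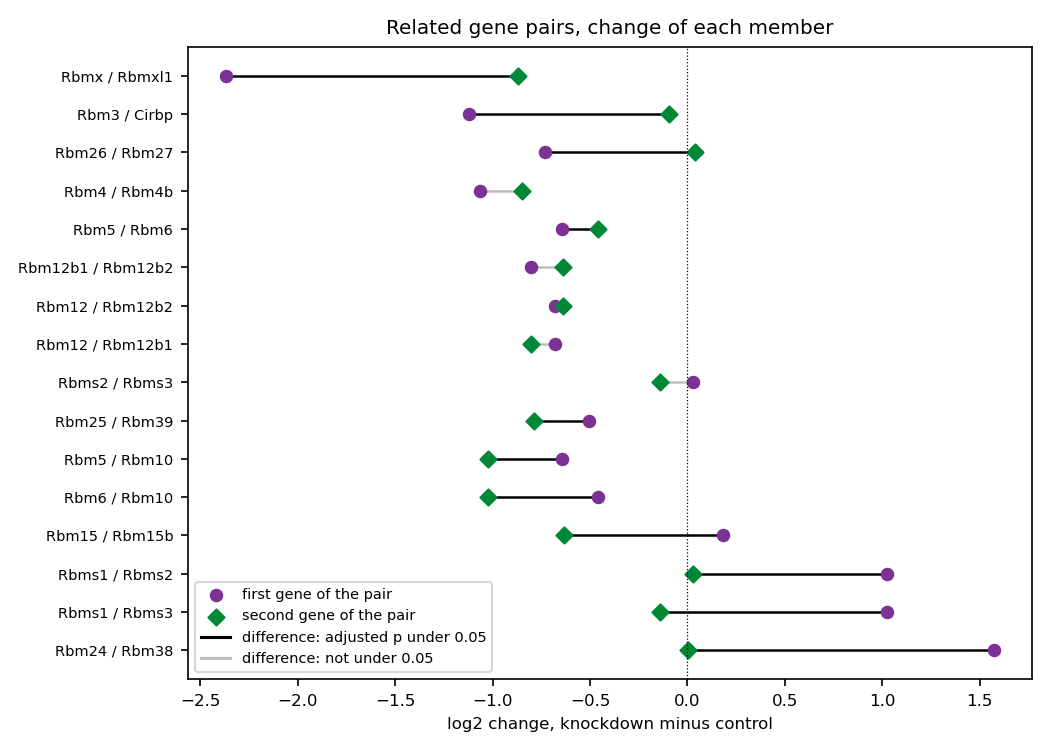
Log2 change, knockdown minus control, of both members of each of 16 related pairs, with the first-named gene as a circle and the second as a diamond. A black line marks an adjusted p under 0.05 for the difference, as for Rbmx and Rbmxl1 or Rbm24 and Rbm38, and a grey line one that did not reach it, as for Rbm4 and Rbm4b.

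The remaining genes are less well known. Rbm45, an RNA-binding protein of developing neurons, fell on both probes, with 0.23, 0.33, 0.43 and 0.23 on the knockdown arrays, against 1.26, 1.33, 1.66 and 1.50 on the control arrays on the brighter. The groups did not overlap, and the falls were 2.19-fold (log2 change -1.13, SE 0.10, limma adjusted p = 2.95e-05) and 2.41-fold (log2 change -1.27, SE 0.33, limma adjusted p = 0.0104). These probes start 23 bases apart (chr2:76221740-76221799 and chr2:76221763-76221822), share 37 positions with 3 differing bases, and so are not separate readings.

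Rbm33, which in human cells binds the m6A demethylase ALKBH5, was the 1 gene of 13 with several tested probes that was called in both directions (7.69%, where 4.11% of all such genes were). The brighter probe (chr5:28742398-28742457) read 3.30, 3.19, 3.07 and 3.05 on the knockdown arrays, against 3.51, 3.51, 3.73 and 3.52 on the control arrays, and it fell 1.33-fold (log2 change -0.41, SE 0.09, limma adjusted p = 0.00358). The other (chr5:28745253-28745312), 2855 bases away, read 0.90, 0.83, 0.87 and 1.02 on the knockdown arrays, against -0.13, -0.17, -0.27 and -0.31 on the control arrays, and it rose 2.18-fold (log2 change 1.13, SE 0.07, limma adjusted p = 5.16e-06). Both separated the groups, in opposite directions, so the gene has no single direction here, although its brighter probe places it among the 24 genes counted as lower.

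Rbm12 was another gene whose probes differed. The brighter (chr2:155920645-155920704) had 2.68, 2.66, 2.67 and 2.63 on the knockdown arrays, against 3.24, 3.31, 3.45 and 3.37 on the control arrays, all knockdown arrays lower, a fall of 1.6-fold (log2 change -0.68, SE 0.07, limma adjusted p = 4.51e-05). The other (chr2:155917741-155917800) had 1.82, 1.79, 1.80 and 1.77 on the knockdown arrays, against 1.72, 1.70, 1.87 and 1.78 on the control arrays, with overlapping groups, and was not called (log2 change 0.03, SE 0.06, limma adjusted p = 0.744). Rbm12b, now Rbm12b1, fell 1.74-fold (log2 change -0.80, SE 0.17, limma adjusted p = 0.00334). Rbm12 minus Rbm12b1 was 0.12 (SE 0.21), Rbm12 minus its other relative Rbm12b2 was -0.04 (SE 0.04) and Rbm12b1 minus Rbm12b2 was -0.16 (SE 0.24), none of which passed (exact permutation, adjusted p = 0.6, 0.419 and 0.518).

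Rbm18 rose 1.26-fold on its brighter probe (log2 change 0.33, SE 0.07, limma adjusted p = 0.00365), and both its probes were called higher, but neither was after scaling by the median (0.16 and 0.30, limma adjusted p = 0.368 and 0.107). The second probe also lost its call without any 1 of 4 arrays (0.43 to 0.49, limma adjusted p = 0.0527 to 0.0732). Rbm43 was not called (log2 change 0.18, SE 0.07, limma adjusted p = 0.0617), although its knockdown arrays lay all above its control arrays, and it was called higher without control replicate 3 (0.21, limma adjusted p = 0.0479).

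Across the 13 genes with several tested probes, 7 had all probes called in the same direction, 4 had only some called (30.8%, where 33.8% of all such genes did), namely Rbm3, Rbm12, Rbm19 and Rbmy1a1, and Rbm41 had none called.

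**Figure D3:**
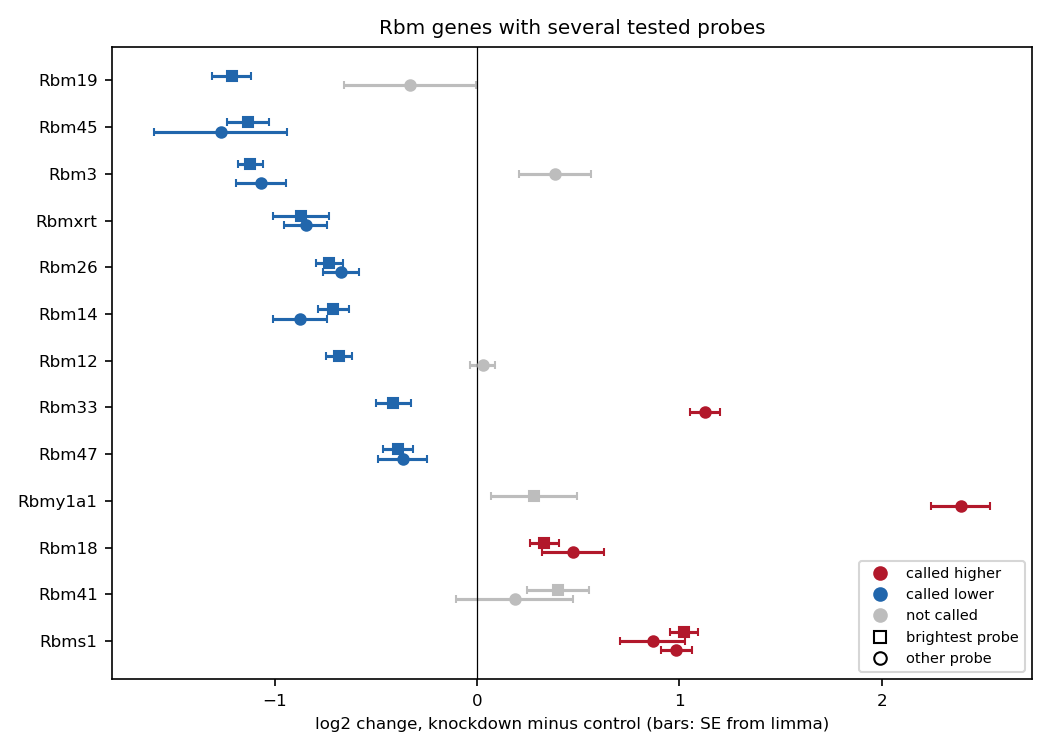
Log2 change, knockdown minus control, of every tested probe of the 13 Rbm genes with several tested probes, with the SE from limma as bars. Squares are the brightest probes and circles the others, red is called higher, blue called lower and grey not called. The Rbmy1a1 probe called higher is drawn at its fitted value, which uses control signals that were not well above background. Rbm33 has a blue square and a red circle, and the probes of Rbms1 and of Rbm26 lie close together.

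**Figure D4:**
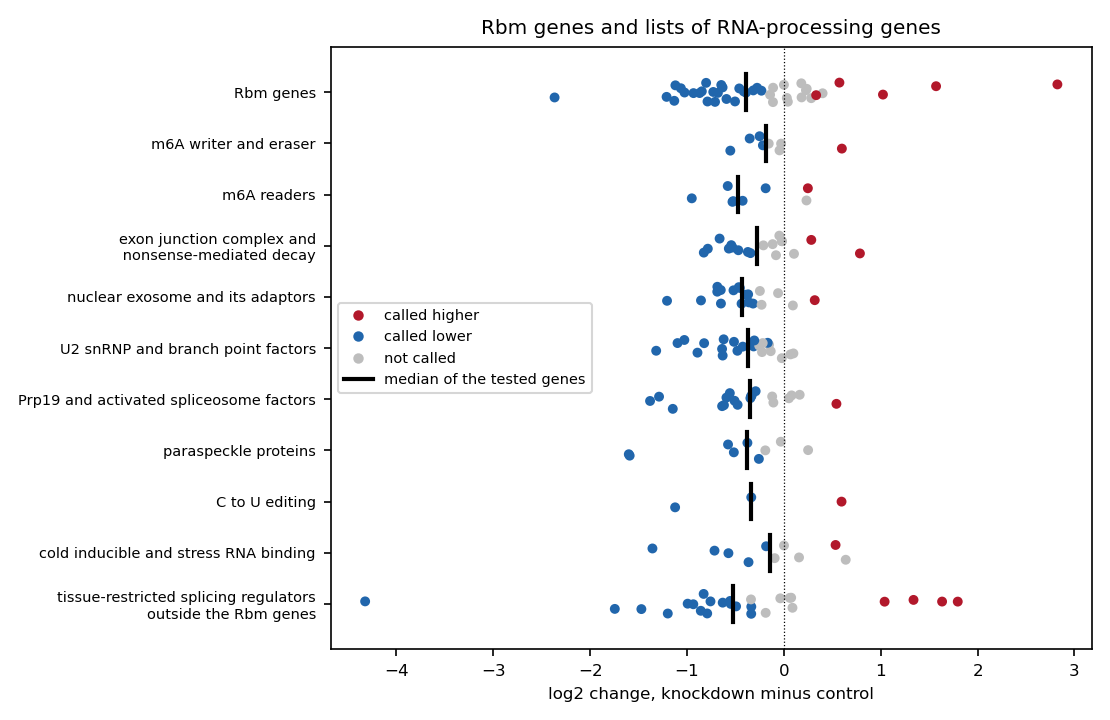
Log2 change, knockdown minus control, of the 41 tested Rbm genes and of the tested genes of 10 lists of RNA-processing genes, 1 point a gene by its brightest tested probe. Black bars are medians, which run from -0.52 for the list labelled tissue-restricted splicing regulators to -0.14 for cold-inducible and stress RNA-binding genes, with -0.39 for the Rbm genes. The list so labelled also holds broadly expressed regulators. The fitted values of Rbm44, Srrm4 and Crnkl1 use signals that were not above background in 1 group.

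By current annotation 6 more probes carry Rbm names that the array files spell differently. Rbm48 was not called on its 2 probes, Rbm12b2 fell on both of its 2 probes (-0.64 and -0.65), and Rbm8a2 and Rbm3os were not tested.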

How the data were processed

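RNA of 8 samples (100 ng each) was amplified with an oligo-dT primer, labelled with Cy3 and hybridised, per the labels' protocols. Spot intensity was extracted and background-corrected with Agilent Feature Extraction 10.7.3.1, per the file headers, with nothing scaled between arrays. The authors' deposited log2 value table, whose processing is not given in the sources used here, was an alternative.

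Spots of a probe were averaged without outlier spots, log2 was taken and each array's 75th percentile was subtracted. Groups came from the sample titles. The fit was limma 3.58.1 in R 4.3.3 (lmFit, eBayes); p-values are two-sided and adjusted after Benjamini and Hochberg over 29097 probes. Where every array of a group read a probe as dim, that group gets a bound, the mean of the higher of its own signal and the lowest signal well above background per array, and its limma p uses dim signals as they are. Related genes were compared by exact permutation over samples. Probe positions are on mm9 and exon annotation was not used. The fit was tested on simulated data first. The number of arrays, 8, limits precision.

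Members and lists were chosen with earlier results of these data known. Every Rbm gene is accounted for. Values of every array are given for called genes changed by at least 1, for Rbm3, Rbm8a, Rbm15, Rbm15b, Rbm7, Rbm17, Rbm5, Rbm10, Rbm39 and Rbmx, and for genes whose probes disagree, except 1 probe of Rbmy1a1, given as ranges. The plan was to name up to 4 called genes with the smallest p from each list, with defining members not called. That was not kept in every list. Some called genes with smaller p are not named, and some named genes were chosen after their values were seen. Alternatives were other scalings, filters and sources of values, blocks for slide, replicate number and the number in the file names, array weights and each array left out. Knockdown and control samples with the same replicate number in their titles did not deviate together (correlations 0.11, -0.12, 0.11 and -0.19). The samples were therefore not treated as pairs, although weak correlations cannot exclude that they were handled so. A pairing of knockdown with control by the number in the file names was not checked in this way. Knockdown replicates 1 and 2, and 3 and 4, share a number in their file names. Some names also carry the letters TR, and whether such arrays are technical repeats is not stated. The p-values count the 4 knockdown arrays as separate. Averaging the arrays that share a number gave 5 higher and 23 lower Rbm calls, and 146 list genes. In that fit 24.6% of all tested genes were called higher and 25.0% lower.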

Additional observations from a re-analysis of the deposited data

Results flagged for a closer look

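In 2 of 82 groups of 4 arrays (41 genes, knockdown and control), 1 array stood apart from the others by Dixon's criterion, which chance meets in about 1 of 20 groups. Both times it was control replicate 3. For Rbm19 its log2 signal was 3.45, against 3.20 to 3.24 on the other control arrays (gap over range 0.837), and for Rbm33 it was 3.73, against 3.51 to 3.52 (gap over range 0.935). Both genes were called without that array too.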

How the results depend on the processing

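Over 21 alternatives the Rbm genes had 4 to 7 higher and 22 to 25 lower calls, against 5 and 24. The shares of all genes in those fits ran from 15.8% to 30.6% called higher and from 15.1% to 32.0% called lower. With a replicate block there were 5 higher and 23 lower calls, 37 Rbm probes were called, and 151 list genes; only Rbm17, the second Rbm18 probe and the second Rbm47 probe lost their call. Of 1060 refits of single probes, 1019 kept direction and call, 26 lost the call, 15 gained it and none reversed. For 1 pair a difference that had not passed changed sign and passed. Rbm12 minus Rbm12b2 was 0.32 (exact permutation, adjusted p = 0.0381) with the mean of all tested probes of a gene, where one Rbm12 probe was not called. With the brightest probes it was -0.04 (exact permutation, adjusted p = 0.419). Without control replicate 3 it passed in the other direction (-0.07, exact permutation, adjusted p = 0.0416), so this pair has no settled direction. Leaving out 1 array in turn gave 5 to 7 higher and 24 to 25 lower calls. Small changes are limited by scaling and by 4 arrays a group, and low signals, such as that of Rbm20, by their spread between arrays.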
